A study of Mus musculus with 18 samples.

Results

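The 10 genes described here are acute phase and oxidative defence genes of the mouse colon, comprising the serum amyloid A genes Saa1, Saa2 and Saa3, the lipocalin gene Lcn2, the dual oxidase gene Duox2 with its maturation factor Duoxa2, the nitric oxide synthase gene Nos2, and the NADPH oxidase gene Nox1 with its cofactors Noxo1 and Noxa1. They were found by symbol among the 24047 rows of a count table, and 10 of 10 had a row. RNA-Seq had been performed on crypt epithelial cells of the colon in 18 libraries of C57BL/6 mice. GF-WT and GF-Ern2-/- mice were germ free. COLONIZED-WT and COLONIZED-Ern2-/- mice had been germ free until they received a cecal homogenate of specific pathogen-free WT donors, 14 days before the cells were taken. CONV-WT and CONV-Ern2-/- mice were raised conventionally under specific pathogen-free conditions. Each of the 6 groups held 3 libraries, and neither the ages of these mice nor the structure of the Ern2 deletion is given in the sources used here. Ern2 encodes ERN2 (IRE1β), an endoplasmic reticulum stress sensor of mucosal epithelium, and the design asks how these genes responded to microbes in mice with and without it.

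Library totals ran from 5865619 to 23154481 counts and were lowest in replicates 2 and 3 of CONV-Ern2-/- and replicate 3 of CONV-WT. Normalized Ern2 counts were 1909 to 3100 in WT libraries and 386 to 3336 in libraries labelled Ern2-/-, of which replicates 1 and 3 of GF-Ern2-/- and replicate 1 of COLONIZED-Ern2-/- reached the WT range. COLONIZED-Ern2-/- replicate 3 (1885) lay just below it, and CONV-Ern2-/- replicate 2 stood at 1622, so this cut does not separate the libraries cleanly. A gene count does not show whether the deleted part was read, so the genotype is used as labelled, and results are also given without the 3 libraries that reached the WT range. The 11 colon epithelium markers were detected in every group, with summed normalized counts of 166649 to 251063. The 11 neutrophil markers in the table summed to at most 2.76 in any library, and 9 to 11 of them were at 0 throughout a group. Libraries with more Y-linked than Xist counts came to 0 of 3 in GF-WT and 3 of 3 in CONV-Ern2-/-, so sex was unevenly spread over the groups.

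Serum amyloid A proteins are small lipid-binding proteins that the liver, and the gut epithelium locally, make in response to cytokines such as IL-6, IL-1 and IL-22. LCN2 binds bacterial siderophores and so withholds iron. DUOX2 produces hydrogen peroxide at the apical surface of epithelial cells and needs DUOXA2 to leave the endoplasmic reticulum, whereas NOX1 makes superoxide together with the organizer NOXO1, the activator NOXA1, the membrane subunit p22phox (Cyba) and a Rac GTPase. NOS2 is the inducible enzyme that makes nitric oxide from arginine. Genes of this kind are known as epithelial responses to gut bacteria, and many are driven through STAT3, NF-kB and C/EBP factors.

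The genes lie on 5 chromosomes (GENCODE annotation of GRCm38/mm10). Saa1 (chr7:46740497-46742980, minus strand), Saa2 (chr7:46751790-46754313, plus strand) and Saa3 (chr7:46711998-46715700, minus strand) form a cluster. Duox2 (chr2:122279247-122298449, minus strand) and Duoxa2 (chr2:122298900-122302885, plus strand) are transcribed away from each other with 450 bases between them. The others are Lcn2 (chr2:32384633-32388252), Noxa1 (chr2:25085667-25095149), Nos2 (chr11:78920787-78960254), Noxo1 (chr17:24696234-24700529) and Nox1 (chrX:134086421-134221956). Noxo1 overlaps Tbl3 by 2581 bases on the opposite strand, Duoxa2 overlaps Duoxa1 by 695, and Nox1 overlaps Cstf2, Arl13a and Xkrx. The strand setting of the counting was not stated, so counts of these overlapping genes are uncertain to that extent.

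The stretches upstream of the serum amyloid A genes and of Noxa1 are shown because Saa1 and Saa2 fell and Noxa1 rose with microbes, while Saa3, of the same family, was not called in any comparison with GF mice. They come from RefSeq (GRCm38.p6), are read 5′ to 3′ on the strand of the gene and end before the first annotated base. Capitals mark matches on either strand to the C/EBP motif TTNNGCAA or, in Noxa1 near the 5′ end, to the NF-kB motifs GGGNNTTCC and GGGNNTCCC, which overlap each other there.
Saa1, chr7:46742981-46743230, minus strand: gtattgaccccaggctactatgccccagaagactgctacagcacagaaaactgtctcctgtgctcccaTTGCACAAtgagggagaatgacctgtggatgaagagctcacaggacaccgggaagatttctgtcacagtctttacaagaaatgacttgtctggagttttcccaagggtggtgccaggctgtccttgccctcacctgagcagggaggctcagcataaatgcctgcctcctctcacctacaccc
Saa2, chr7:46751583-46751789, plus strand: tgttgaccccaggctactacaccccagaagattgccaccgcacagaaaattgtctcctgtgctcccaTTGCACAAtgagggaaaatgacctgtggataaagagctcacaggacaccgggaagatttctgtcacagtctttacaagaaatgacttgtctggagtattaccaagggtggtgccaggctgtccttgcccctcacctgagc
Saa3, chr7:46715701-46715926, minus strand: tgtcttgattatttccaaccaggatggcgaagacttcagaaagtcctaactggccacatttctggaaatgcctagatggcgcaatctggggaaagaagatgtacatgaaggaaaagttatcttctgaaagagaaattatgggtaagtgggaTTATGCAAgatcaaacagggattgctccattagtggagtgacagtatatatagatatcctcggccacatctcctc
Noxa1, chr2:25095206-25095455, minus strand: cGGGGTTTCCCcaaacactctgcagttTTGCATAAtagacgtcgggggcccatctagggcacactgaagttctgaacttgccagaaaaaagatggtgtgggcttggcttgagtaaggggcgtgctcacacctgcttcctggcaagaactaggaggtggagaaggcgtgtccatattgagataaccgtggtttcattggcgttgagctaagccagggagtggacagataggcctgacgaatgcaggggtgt
In windows of 300 bases around the RefSeq start, the C/EBP motif occurred in 5 of 9 genes with a window (Saa1, Saa2, Saa3, Lcn2 and Noxa1) and in 10.8% of all 32851 windows. GGGNNTTCC occurred in Nox1 and Noxa1 (5.82% of all windows) and GGGNNTCCC in Noxo1 and Noxa1 (5.66%). The STAT motifs TTCCNGGAA and TTCNNNGAA, found in 1.15% and 8.3% of all windows, were in 0 of 9. The 250 upstream bases of Saa1 and Saa2 were identical at 95.6% of aligned bases, and those of Saa1 and Saa3 at 56%.

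The response to microbes had opposite directions within the group. Saa1 and Saa2 fell after colonization, whereas Duox2, Duoxa2, Nos2 and Noxa1 rose in at least 1 comparison with germ-free mice, and Nox1, Noxo1 and Lcn2 did not pass the test in any comparison. A gene was called at an adjusted p under 0.01 in DESeq2, and the share of all tested genes that was called is given beside each count. Where fewer than 10 members were tested, Lcn2 had no adjusted p, nor had Saa2 or Saa3 where 8 were tested. In CONV-WT compared with GF-WT mice 5 of 10 members were called (10.7% of all genes), and in COLONIZED-WT compared with GF-WT mice 5 of 9 tested (17.9%). In the libraries labelled Ern2-/- these counts were 3 of 8 for CONV compared with GF (4.36%) and 4 of 9 for COLONIZED compared with GF (7.22%). The tested members' median log2 fold change, taken over genes that moved both ways, was 1.21 in CONV-WT and 1.16 in COLONIZED-WT compared with GF-WT mice, beside 0.00 and -0.01 over all tested genes, and 0.47 in CONV and 0.43 in COLONIZED mice under the Ern2-/- label, beside -0.01 and -0.02. Between genotype labels only Saa1 was called in CONV mice, 1 of 8 tested (2.89%), and no member was called in GF mice (0 of 10; 0.035%) or COLONIZED mice (0 of 8; 1.36%), where 1 and 3 members had an unadjusted p under 0.05. None of 9 tested members was called between CONV-WT and COLONIZED-WT mice (0.117%), with an unadjusted p under 0.05 for 1, Nos2 (1.22, SE 0.58, no overlap), whereas 2 of 9 were higher in CONV-Ern2-/- than in COLONIZED-Ern2-/- mice (8.37%). The interaction, that is, the difference between genotype labels in the response to microbes, was called for 1 of 9 members in CONV mice (0.178%) and for 0 of 10 in COLONIZED mice (0.028%), with no unadjusted p under 0.05 in the latter.

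These shares themselves moved with the libraries used. Without the 3 libraries at WT levels of Ern2, the share called was 4.57% between genotype labels of GF mice, where GF-Ern2-/- replicate 2 was then the lone library of its group, 5.3% between those of COLONIZED mice, 3.43% in the COLONIZED interaction and 1.38% in the CONV interaction. Members called were then still 0 in the GF genotype comparison and in the COLONIZED interaction, 2 in the COLONIZED genotype comparison and 1 in the CONV interaction. With sex as a covariate, the share in COLONIZED-WT compared with GF-WT mice was 1.88%, with 3 members called. More Y-linked than Xist counts were found in 0 of 3 GF-WT and 2 of 3 COLONIZED-WT libraries. The effect of microbes in that fit thus rests on COLONIZED-WT replicate 2 alone. Among fits that left out 1 library, the share between genotype labels of CONV mice was lowest when CONV-WT replicate 2 was dropped (0.972%) and highest when replicate 3 was (12.9%), and for CONV-WT compared with GF-WT mice the same libraries gave 4.34% and 20.3%.

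The choice of tool mattered. With the quasi-likelihood test of edgeR, 3 members were called in COLONIZED-WT compared with GF-WT mice (4.94% of all genes), 2 in COLONIZED-Ern2-/- compared with GF-Ern2-/- mice (0.216%) and 1 in CONV-Ern2-/- compared with COLONIZED-Ern2-/- mice (0.282%). It called no member in CONV-WT compared with GF-WT mice (0.175%), in CONV-Ern2-/- compared with GF-Ern2-/- mice (0.0325%) or between genotype labels of COLONIZED mice (0.00786%), where 5, 6 and 3 members had an unadjusted p under 0.05. In the other 5 comparisons, the interactions included, edgeR called 0 of all genes tested (0%), and 0 to 2 members had an unadjusted p under 0.05. The members kept by edgeR were Saa1 in these 3 comparisons, Saa2 in both comparisons of COLONIZED with GF mice, and Noxa1 in the WT comparison.

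**Figure D1:**
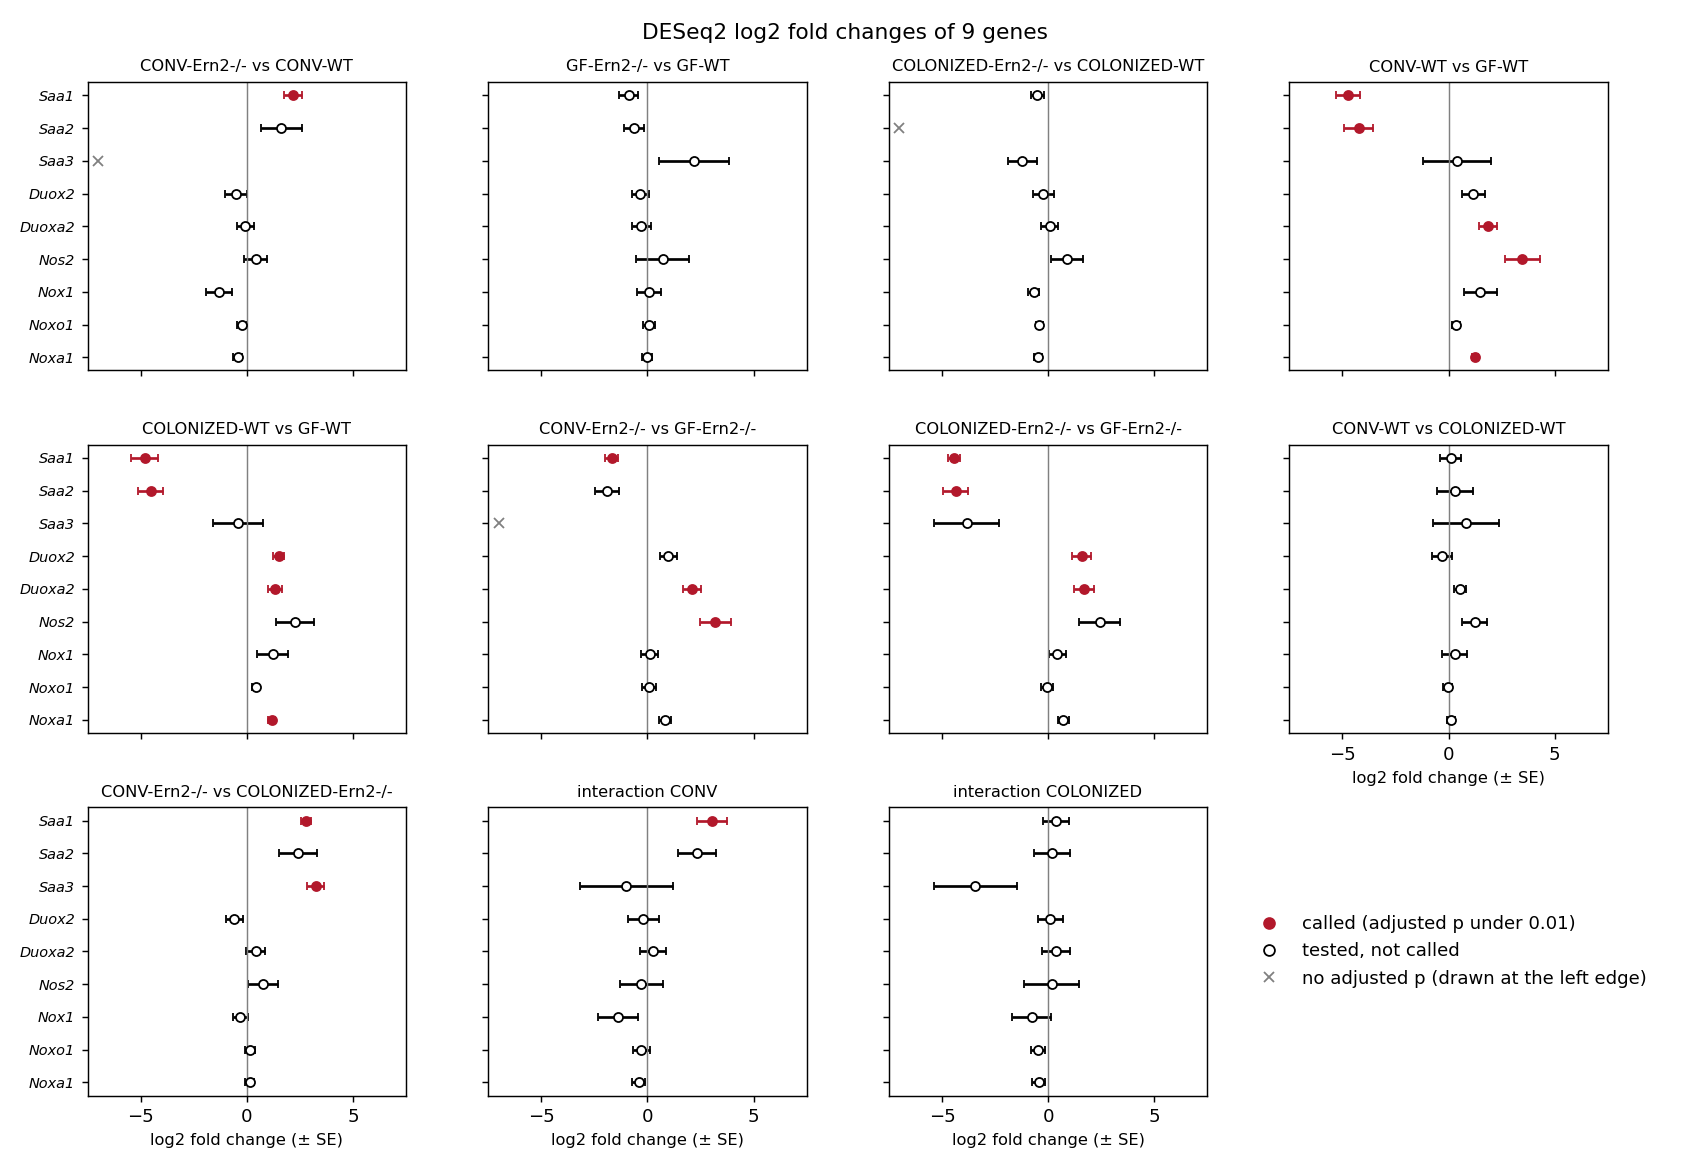
DESeq2 log2 fold changes with their standard errors (x axis) of 9 of the genes (y axis) in 9 comparisons of 3 libraries against 3 and in 2 interactions over 12 libraries. Filled red points were called, open points were tested and not called, and crosses at the left edge had no adjusted p; Lcn2, with 0 to 6 counts a library, is not drawn. Saa1 and Saa2 sit to the left of 0 in each of the 4 comparisons with GF mice.

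Saa1 had the largest levels of the group in germ-free crypts. The GF-WT libraries, replicates 1 to 3 in order as in all that follows, held 6397, 13102 and 25696 normalized counts, and the GF-Ern2-/- libraries 7865, 5814 and 10852. COLONIZED-WT libraries held 296, 756 and 549, COLONIZED-Ern2-/- libraries 340, 453 and 340, and CONV-WT libraries 274, 597 and 835. All 6 GF libraries thus stood above all 12 others, of which CONV-Ern2-/- came nearest with 2918, 2957 and 1805. The order of the group means was GF-WT (15065 ± 9798, SD, n = 3), GF-Ern2-/- (8177 ± 2534), CONV-Ern2-/- (2560 ± 654), CONV-WT (569 ± 281), COLONIZED-WT (533 ± 230) and COLONIZED-Ern2-/- (378 ± 65.3). The GF groups overlapped, as did CONV-WT with COLONIZED-WT and COLONIZED-WT with COLONIZED-Ern2-/-, and the other neighbours in this order did not. Per 1 kb of exon the GF-WT mean of Saa1 was 6079 normalized counts, compared with 528 for Noxo1 and 520 for Noxa1, the next highest members there.

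Compared with GF-WT mice, Saa1 was 26.7-fold lower in CONV-WT (log2 fold change -4.74, SE 0.57, adjusted p = 3.23e-14) and 28.1-fold lower in COLONIZED-WT mice (-4.82, SE 0.65, adjusted p = 2.89e-11). Without GF-WT replicate 3, the highest library, these log2 fold changes were -4.11 and -4.18, and both were still called. In libraries labelled Ern2-/- the decrease was 21.7-fold in COLONIZED (-4.44, SE 0.27, adjusted p = 1.24e-57) and 3.21-fold in CONV mice (-1.68, SE 0.31, adjusted p = 7.4e-06). Saa1 thus fell in all 4 comparisons with germ-free mice, and each call held in every fit that left out 1 library. The CONV-Ern2-/- decrease was not called by edgeR (adjusted p = 0.0401) or without the GF-Ern2-/- libraries at WT levels of Ern2 (-1.19, adjusted p = 0.0393), nor was the CONV-WT decrease by edgeR (adjusted p = 0.0203). In crypt preparations of bulk RNA, fewer cells of a type and less RNA per cell cannot be told apart.

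Between genotype labels, Saa1 was 4.51-fold higher in CONV-Ern2-/- than in CONV-WT mice (log2 fold change 2.17, SE 0.44, adjusted p = 7.29e-05), with no overlap of the libraries. The call held in all 6 fits that left out 1 library, which gave 1.84 to 2.56, but not in edgeR (adjusted p = 0.092). With sex as a covariate the value was 3.22. All 3 CONV-Ern2-/- libraries but only 1 CONV-WT library, replicate 1, had more Y-linked than Xist counts, so that value rests on 1 WT library. Saa1 was also 6.81-fold higher in CONV-Ern2-/- than in COLONIZED-Ern2-/- mice (2.77, SE 0.24, adjusted p = 2.73e-26; edgeR adjusted p = 0.00266). In contrast, it did not pass the test between genotype labels in GF (-0.88, SE 0.44) or COLONIZED mice (-0.50, SE 0.29). The interaction in CONV mice was 3.05 on the log2 scale (SE 0.70, adjusted p = 0.00714), so that the decrease with lifelong microbes was smaller under the Ern2-/- label. The value kept its direction and much of its size, at 2.43 to 3.43 in 12 fits that left out 1 library and 3.55 (adjusted p = 0.00606) without the GF-Ern2-/- libraries at WT levels of Ern2. The call lay close to the threshold, since it held in 3 of the 12 fits (without GF-WT replicate 1, GF-Ern2-/- replicate 3 or CONV-WT replicate 3) and was lost in the other 9, with values of 2.43 to 3.25 and adjusted p of 0.0159 to 0.0768, and in edgeR (adjusted p = 0.431). In COLONIZED mice the interaction was 0.38 (SE 0.60, adjusted p = 0.998).

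Markers of surface colonocytes moved with this genotype difference. The 8 markers summed to 319932 to 424531 normalized counts in CONV-Ern2-/- and to 33539, 64121 and 304445 in CONV-WT libraries, and 4 of 8 (Slc26a3, Car4, Ceacam20 and Slc20a1) were called higher in CONV-Ern2-/- mice (2.89% of all genes called). CONV-WT replicate 3, with the marker sum nearest to CONV-Ern2-/-, had 835 normalized counts of Saa1 beside 1805 to 2957 there. Between microbial states of WT mice the sums overlapped. GF-WT libraries ranged from 40353 to 175388 and COLONIZED-WT libraries from 74317 to 173136, although Saa1 did not overlap between them, while 3 of 8 markers (Car4, Ceacam20 and Mxd1) were called lower in COLONIZED-WT (17.9% of all genes called) and 4 of 8 in CONV-WT (10.7%). In COLONIZED-Ern2-/- compared with GF-Ern2-/- mice 6 of 8 were called lower (7.22%), in CONV-Ern2-/- compared with GF-Ern2-/- mice 0 of 7 (4.36%), and in CONV-Ern2-/- compared with COLONIZED-Ern2-/- mice 7 of 8 were called higher (8.37%). In the CONV interaction 1 of 8, Ceacam20, was called higher (0.178%). Of the crypt base and proliferation list, 5 of 9 tested markers were called higher in COLONIZED-WT (Mki67, Top2a, Ccnb1, Pcna and Mcm5), 4 of 9 in COLONIZED-Ern2-/-, 2 of 9 in CONV-WT and 0 of 9 in CONV-Ern2-/- compared with GF mice of the same label, beside the same shares of all genes. Between CONV-Ern2-/- and CONV-WT mice 2 of 10 (Axin2 and Olfm4) were called, 1 higher and 1 lower (2.89%). In CONV-Ern2-/- compared with COLONIZED-Ern2-/- mice 2 of 10 (Pcna and Mcm5) were called lower (8.37%). The stromal and endothelial list summed to 121 to 223 in CONV-Ern2-/- libraries, to 33, 53.3 and 257 in CONV-WT and to at most 80.2 elsewhere. The part of these shifts in the Saa1 differences was not tested.

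**Figure D2:**
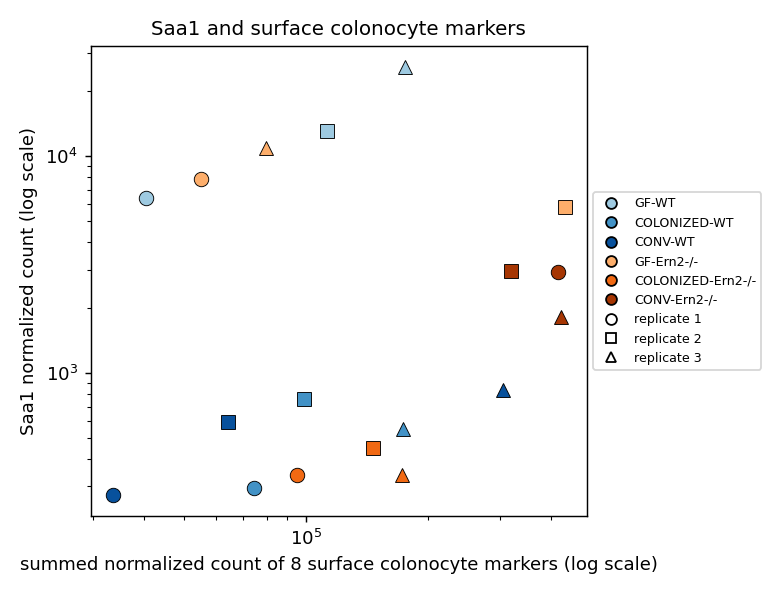
Saa1 normalized count (y axis, log scale) against the summed normalized count of 8 surface colonocyte markers (x axis, log scale) in 18 libraries, with colours for groups and symbols for replicates. The 6 GF libraries lie between 5814 and 25696 in Saa1 at marker sums from 40353 to 432530, and the 3 CONV-Ern2-/- libraries lie at high marker sums between Saa1 levels of 1805 and 2957.

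Saa2, the neighbour of Saa1, followed it at a far lower count. Normalized counts were 56.1, 65.1 and 174 in GF-WT and 58.9, 53.1 and 77.1 in GF-Ern2-/- libraries, and 2.14 to 9.13 in the COLONIZED groups and CONV-WT. CONV-Ern2-/- libraries held 23, 22.2 and 2.76, so replicate 3 lay just below the lowest CONV-WT library (2.96). Saa2 was 18.9-fold lower in CONV-WT (log2 fold change -4.24, SE 0.70, adjusted p = 1.22e-07) and 23.2-fold lower in COLONIZED-WT mice (-4.53, SE 0.59, adjusted p = 2.86e-12) than in GF-WT mice. Without GF-WT replicate 3 these values were -3.56 and -3.83, and both stayed called. It was 20.2-fold lower in COLONIZED-Ern2-/- than in GF-Ern2-/- mice (-4.34, SE 0.59, adjusted p = 5.03e-11). The CONV-Ern2-/- difference from GF-Ern2-/- mice (-1.90, adjusted p = 0.0205) and from CONV-WT mice (1.63, adjusted p = 0.394) did not pass.

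Saa2 took 0.153% to 1.69% of the summed Saa1 and Saa2 counts of a library, with a median of 0.759%, and both extremes were CONV libraries, CONV-Ern2-/- replicate 3 and CONV-WT replicate 1. The split is uncertain, because the main transcripts of the genes are identical at 94.4% of aligned bases, 4.67% of the 75-base words of Saa1 also occur in Saa2, and RefSeq lists each symbol as a synonym of the other. With both counts summed to 1 gene, the calls were those of Saa1, including 2.17 for CONV-Ern2-/- compared with CONV-WT mice (adjusted p = 7.47e-05).

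Saa3, the serum amyloid A gene expressed by macrophages and epithelia, varied more between libraries than between groups. GF-WT held 9.99, 84.1 and 129 normalized counts, COLONIZED-WT 11.4, 39.7 and 117, and CONV-WT 13.2, 6.91 and 274. GF-Ern2-/- held 11.9, 955 and 55.2, and COLONIZED-Ern2-/- held 16.4, 15.3 and 41.1. CONV-Ern2-/- stood apart, since its 3 libraries lay close together at 188, 182 and 309. Only the difference between CONV-Ern2-/- and COLONIZED-Ern2-/- mice was called, at 9.44-fold (log2 fold change 3.24, SE 0.41, adjusted p = 1.85e-12), and it held in each of 6 fits that left out 1 library but not in edgeR (adjusted p = 0.0104) or in the fit of all 18 libraries (adjusted p = 0.102). Within these groups the surface colonocyte sum was also apart, at 319932 to 424531 compared with 94793 to 172455. The stromal and endothelial sum was apart as well, at 121 to 223 compared with 19.2 to 23.1. Of that list 3 of 7 tested markers (Col3a1, Myh11 and Pecam1) were called higher in CONV-Ern2-/- mice (8.37% of all genes called).

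In 2 comparisons a single library kept Saa3 from being tested, since Cook's filter removed it. Between CONV-Ern2-/- and CONV-WT mice the log2 fold change was 1.20 (SE 1.41), and without CONV-WT replicate 3 it was 4.47 (SE 0.49, adjusted p = 8.12e-18). Between CONV-Ern2-/- and GF-Ern2-/- mice it was -0.58 (SE 1.48), without GF-Ern2-/- replicate 2 it was 2.76 (adjusted p = 0.000106), and without the other 2 GF-Ern2-/- libraries it was -2.09 (adjusted p = 0.000198). The direction of the last comparison thus depended on which GF-Ern2-/- library was left. Likewise, the difference between CONV-WT and GF-WT mice was 0.39 (SE 1.59) with all libraries and -2.89 (adjusted p = 0.00696) without CONV-WT replicate 3. Between COLONIZED-Ern2-/- and GF-Ern2-/- mice it was -3.83 (SE 1.53, adjusted p = 0.0787). Without GF-Ern2-/- replicate 2 it was -0.45 (adjusted p = 0.744). Without the 3 libraries at WT levels of Ern2 it was -5.11, a fit in which that replicate was the lone GF library. The libraries with the most Saa3 in these groups, GF-Ern2-/- replicate 2 and CONV-WT replicate 3, also had the highest surface colonocyte sums of their groups, 432530 and 304445. The macrophage and monocyte list summed to 621 to 739 in GF-Ern2-/- and 575 to 988 in CONV-WT libraries, but most of this sum was Cd14, with 514 to 644 and 424 to 899. C1qa, a complement gene of tissue macrophages in the same list, was highest in those same libraries, at 27.1 normalized counts in GF-Ern2-/- replicate 2, compared with 1.49 and 6.25 in the others, and at 34.7 in CONV-WT replicate 3, compared with 2.83 and 3.95. It stood at 71, 24.4 and 60.7 in CONV-Ern2-/- and at 3.56, 5.4 and 38.1 in COLONIZED-Ern2-/- libraries. The rest of the list was mixed. In GF-Ern2-/- replicate 2, Csf1r (6.02) and Mrc1 (39.1) were also the highest of the group, whereas Cd68 (3.01), C1qb (0) and Ms4a7 (0) were the lowest. In CONV-WT replicate 3, Lyz2 (5.48) was the highest and Ms4a7 (1.83) the lowest. Apart from Mrc1, these values rest on few reads, so their ranks are uncertain. The stromal and endothelial sum was also the highest of the group in GF-Ern2-/- replicate 2 (80.2, compared with 52.2 and 74). The same held for CONV-WT replicate 3 (257, compared with 33 and 53.3). The part of surface cells, stromal cells and macrophages in the Saa3 differences was not tested.

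Lcn2 was hardly detected in any group. Its raw counts ran from 0 to 6 per library, and GF-WT held 0 counts over its 3 libraries, which allows up to 0.0467 CPM at a limit of 3 counts for the group (counting error only). The highest library was CONV-WT replicate 3, with 6 counts. Lcn2 was tested in GF-Ern2-/- compared with GF-WT mice, in CONV-WT compared with GF-WT mice and in the COLONIZED interaction, and was not called, and the other fits gave it no adjusted p. Differences in Lcn2 were therefore not detectable at this depth. Markers of neutrophils, a common source of Lcn2, were at or near 0 in the same libraries.

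Other acute phase proteins were largely undetected as well. Of 18 listed genes 1 or 2 were tested in 9 of the 11 fits, 8 or 9 in the remaining fits, and none was called in any, so a wider acute phase change was not measured here. Of the iron handling genes, 1 of 6 tested was called in CONV-WT and 2 of 5 in COLONIZED-WT compared with GF-WT mice (10.7% and 17.9% of all genes). Slc40a1, the iron exporter ferroportin, fell with microbes in each comparison with GF mice, from 5538 ± 441 (SD, n = 3) normalized counts in GF-WT to 1371 ± 701 in CONV-WT (log2 fold change -2.03, SE 0.40, adjusted p = 1.44e-05) and 1706 ± 670 in COLONIZED-WT mice (-1.69, SE 0.24, adjusted p = 5.05e-10). In libraries labelled Ern2-/- the log2 fold changes were -1.88 (adjusted p = 2.61e-07) in CONV and -1.12 (adjusted p = 3.3e-07) in COLONIZED mice (4.36% and 7.22% of all genes called). Tfrc, the transferrin receptor, fell in COLONIZED-WT mice (-0.89, adjusted p = 0.00104). The ferritin genes Fth1 (1.07) and Ftl1 (0.94) were higher in CONV-Ern2-/- than in COLONIZED-Ern2-/- mice (8.37% of all genes called).

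**Figure D3:**
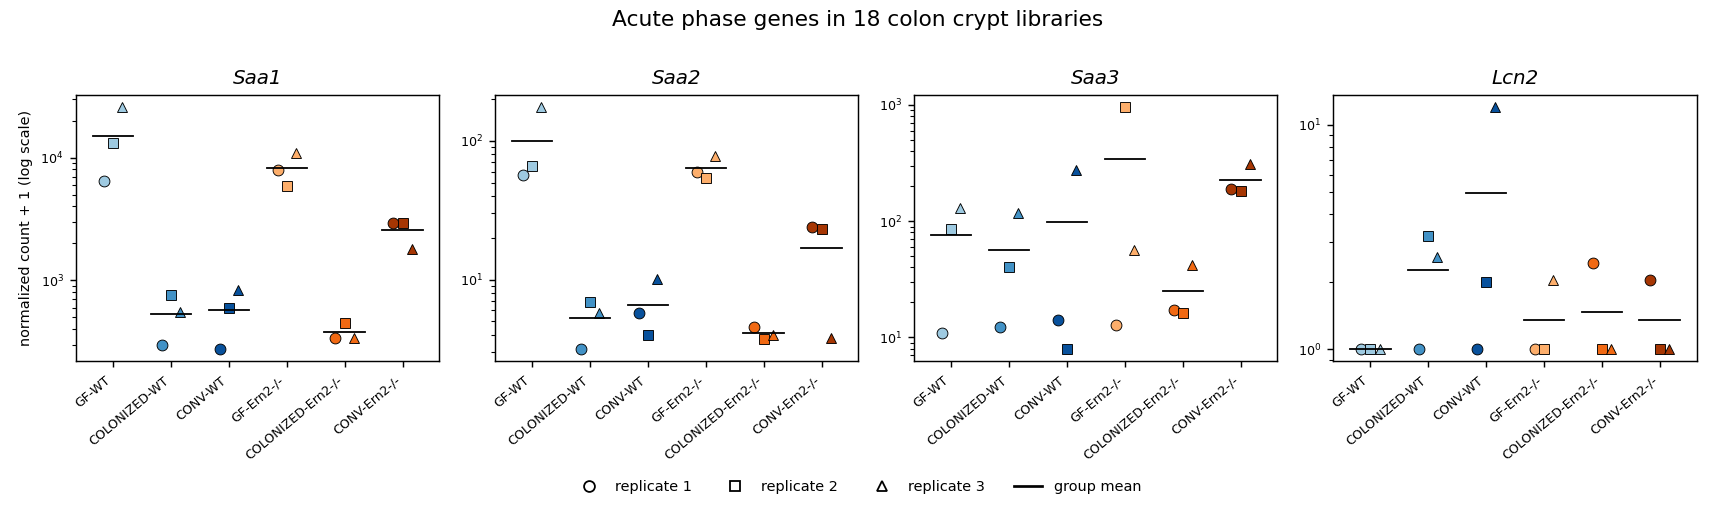
Normalized count plus 1 (y axis, log scale) of Saa1, Saa2, Saa3 and Lcn2 in each library of 6 groups (x axis), with symbols for replicates and a bar for the group mean of 3 libraries. All 6 GF libraries stand above the others in Saa1 and Saa2, GF-Ern2-/- replicate 2 and CONV-WT replicate 3 stand apart in Saa3, and Lcn2 stays near 0.

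Duox2 and Duoxa2, the neighbouring genes for the hydrogen peroxide-producing oxidase and its maturation factor, rose with microbes. Duox2 stood at 659, 350 and 282 normalized counts in GF-WT libraries and at 1269, 1238 and 1095 after colonization of WT mice. GF-Ern2-/- libraries held 532, 221 and 271, and COLONIZED-Ern2-/- libraries 1754, 763 and 566, so that the COLONIZED libraries stood above the GF libraries of the same genotype label. CONV-WT libraries were spread widely, at 1244, 1348 and 341, and CONV-Ern2-/- libraries held 950, 555 and 513. Duox2 was 2.81-fold higher in COLONIZED-WT than in GF-WT mice (log2 fold change 1.49, SE 0.28, adjusted p = 2.05e-06), and this held in all 6 fits that left out 1 library but not with sex as a covariate (adjusted p = 0.0194), in the fit of all 18 libraries (0.0249) or in edgeR (0.0122). With sex as a covariate the value was 1.54 and rested on COLONIZED-WT replicate 2 alone. In CONV-WT compared with GF-WT mice Duox2 did not pass (1.17, SE 0.55, adjusted p = 0.129), and without CONV-WT replicate 3 it did (1.59, SE 0.35, adjusted p = 6.57e-05). The crypt base and proliferation list summed to 6662 to 10780 in GF-WT and 14984 to 16603 in COLONIZED-WT libraries. In CONV-WT libraries it summed to 18177, 17332 and 9388. Under the Ern2-/- label it summed to 7354 to 10612 in GF, 15781 to 18853 in COLONIZED and 8708 to 13201 in CONV libraries. Its part in the differences of Duox2, Duoxa2, Nox1 and Noxa1 was not tested.

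In COLONIZED-Ern2-/- compared with GF-Ern2-/- mice Duox2 was 3.01-fold higher (1.59, SE 0.45, adjusted p = 0.00594), but this held in only 2 of 6 fits that left out 1 library. The log2 fold change was 1.37 without GF-Ern2-/- replicate 2 (adjusted p = 0.178), 1.45 without GF-Ern2-/- replicate 3 (0.0468), 0.96 without COLONIZED-Ern2-/- replicate 1 (0.145) and 1.77 without COLONIZED-Ern2-/- replicate 2 (0.024), and the fit of all 18 libraries did not call it (adjusted p = 0.0151). In CONV-Ern2-/- compared with GF-Ern2-/- mice it was 0.98 (SE 0.39, adjusted p = 0.116), and without GF-Ern2-/- replicate 1 it was 1.45 and called (adjusted p = 0.00574). Between genotype labels Duox2 did not pass in any microbial state. Without COLONIZED-Ern2-/- replicate 1, the COLONIZED-Ern2-/- library at WT levels of Ern2, Duox2 was lower in COLONIZED-Ern2-/- than in COLONIZED-WT mice (-0.85, SE 0.18, adjusted p = 0.000172).

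Duoxa2 was lowest in GF libraries as well. GF-WT libraries held 101, 60.2 and 38.9 normalized counts, COLONIZED-WT libraries 197, 172 and 125, and CONV-WT libraries 176, 290 and 257. GF-Ern2-/- libraries held 76.8, 47.1 and 37.5, COLONIZED-Ern2-/- libraries 301, 130 and 88.3, and CONV-Ern2-/- libraries 135, 273 and 290. In each genotype label the GF libraries thus lay below all COLONIZED and CONV libraries. Duoxa2 was 3.6-fold higher in CONV-WT (log2 fold change 1.85, SE 0.41, adjusted p = 0.000198) and 2.5-fold higher in COLONIZED-WT (1.32, SE 0.34, adjusted p = 0.00114) than in GF-WT mice. It was 4.25-fold higher in CONV-Ern2-/- (2.09, SE 0.42, adjusted p = 5.8e-05) and 3.2-fold higher in COLONIZED-Ern2-/- mice (1.68, SE 0.48, adjusted p = 0.00776) than in GF-Ern2-/- mice. No genotype difference passed, with -0.07 (SE 0.39) in CONV, -0.29 (SE 0.46) in GF and 0.07 (SE 0.38) in COLONIZED mice.

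Of these Duoxa2 increases, that of CONV-Ern2-/- mice held in all 6 fits that left out 1 library. The increase in CONV-WT mice lost its call without GF-WT replicate 2 (1.78, adjusted p = 0.0107) or CONV-WT replicate 2 (1.70, adjusted p = 0.0137). That in COLONIZED-WT mice lost it without GF-WT replicate 2 (1.25, adjusted p = 0.0223), COLONIZED-WT replicate 1 (1.17, adjusted p = 0.0413) or COLONIZED-WT replicate 2 (1.29, adjusted p = 0.0195), with sex as a covariate (1.38, resting on COLONIZED-WT replicate 2 alone, adjusted p = 0.14) and in the fit of all 18 libraries (1.31, adjusted p = 0.0303). That in COLONIZED-Ern2-/- mice held in 2 of 6 fits and was lost without GF-Ern2-/- replicate 2 (1.61, adjusted p = 0.0228), GF-Ern2-/- replicate 3 (1.47, adjusted p = 0.0557), COLONIZED-Ern2-/- replicate 1 (1.01, adjusted p = 0.168) or COLONIZED-Ern2-/- replicate 2 (1.86, adjusted p = 0.0327), and without the 3 libraries at WT levels of Ern2 (1.19, adjusted p = 0.166). Duoxa2 increases were not called by edgeR in any of the 4 comparisons.

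Nos2, the inducible nitric oxide synthase, was expressed at a low level and rose in CONV mice. The raw counts of GF-WT libraries were 7, 1 and 2, those of COLONIZED-WT libraries 9, 23 and 15, and those of CONV-WT libraries 18, 42 and 13. Under the Ern2-/- label, GF libraries had 4, 7 and 2, COLONIZED libraries 67, 11 and 7, and CONV libraries 28, 22 and 12. As normalized counts, CONV-WT (17.0, 41.5 and 23.7) and CONV-Ern2-/- (29.2, 48.9 and 33.1) stood above all GF libraries, of which GF-Ern2-/- replicate 2 was highest with 7.02. Nos2 was 11.1-fold higher in CONV-WT than in GF-WT mice (log2 fold change 3.48, SE 0.82, adjusted p = 0.000481) and 9.2-fold higher in CONV-Ern2-/- than in GF-Ern2-/- mice (3.20, SE 0.73, adjusted p = 0.000512). In COLONIZED mice the increase did not pass, with 2.27 (SE 0.90, adjusted p = 0.0427) in WT and 2.43 (SE 0.95, adjusted p = 0.0685) under the Ern2-/- label. Among fits that left out 1 library these values ran from 1.82 to 3.49 and from 1.07 to 3.10, and none passed. The lowest COLONIZED-WT library (6.42) lay above the highest GF-WT library (5.38), and the lowest COLONIZED-Ern2-/- library (7.02) at the level of the highest GF-Ern2-/- library. No genotype difference passed, nor did either interaction.

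The Nos2 calls depended on single libraries. In CONV-WT mice the call was lost without GF-WT replicate 2 (3.02, adjusted p = 0.0124), GF-WT replicate 3 (3.19, adjusted p = 0.0145) or CONV-WT replicate 2 (3.04, adjusted p = 0.0491), and the value was 4.70 without GF-WT replicate 1. In CONV-Ern2-/- mice it was lost without GF-Ern2-/- replicate 1 (3.01, adjusted p = 0.0156) or CONV-Ern2-/- replicate 2 (2.95, adjusted p = 0.0228), and without both GF-Ern2-/- libraries at WT levels of Ern2 (2.38, adjusted p = 0.168) or with sex as a covariate (2.92, adjusted p = 0.0103), and the value was 3.82 without GF-Ern2-/- replicate 2. Macrophages can also express Nos2. The macrophage and monocyte list summed to 437 to 883 in GF-WT, 575 to 988 in CONV-WT, 621 to 739 in GF-Ern2-/- and 662 to 844 in CONV-Ern2-/- libraries, and most of it was Cd14. C1qa of that list held 0, 3.5 and 5.55 normalized counts in GF-WT and 2.83, 3.95 and 34.7 in CONV-WT libraries, and 1.49, 27.1 and 6.25 in GF-Ern2-/- and 71, 24.4 and 60.7 in CONV-Ern2-/- libraries. Others of the list moved differently, such as Csf1r at 1.54, 6.3 and 9.72 in GF-WT and 0, 1.98 and 0 in CONV-WT libraries, and Itgam at 38.8, 35.1 and 37.5 in GF-Ern2-/- and 31.3, 20 and 27.6 in CONV-Ern2-/- libraries. DESeq2 called no gene of the list in these comparisons, and the part of macrophages in the Nos2 differences was not tested.

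Among other enzymes of nitric oxide and arginine metabolism, Ddah2, which degrades the NOS inhibitor dimethylarginine, was called higher in CONV-WT and in COLONIZED-WT compared with GF-WT mice. It rose from 13.6 ± 4.61 to 48.8 ± 17.9 (SD, n = 3) normalized counts in CONV-WT mice (log2 fold change 1.85, adjusted p = 0.00148) and to 39 ± 14.8 in COLONIZED-WT mice (1.53, adjusted p = 0.00635). Ddah1, the related enzyme, rose in libraries labelled Ern2-/- (1.06 in CONV and 1.21 in COLONIZED mice). Ass1, which regenerates arginine, was lower in CONV-Ern2-/- than in GF-Ern2-/- mice (-1.71, adjusted p = 0.00222) and than in COLONIZED-Ern2-/- mice (-1.56, adjusted p = 0.000705).

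Among the genes of the NOX1 complex, the activator Noxa1 rose with microbes and varied little within groups. GF-WT libraries held 860, 870 and 794 normalized counts, COLONIZED-WT libraries 2239, 1679 and 1687, and CONV-WT libraries 1882, 2104 and 2038. GF-Ern2-/- libraries held 817, 594 and 1047, COLONIZED-Ern2-/- libraries 1519, 1082 and 1451, and CONV-Ern2-/- libraries 1708, 1258 and 1454. All GF libraries stood below all others. Noxa1 was 2.37-fold higher in CONV-WT (log2 fold change 1.24, SE 0.13, adjusted p = 3.33e-18) and 2.24-fold higher in COLONIZED-WT (1.16, SE 0.16, adjusted p = 5.53e-11) than in GF-WT mice, and both calls held in each fit that left out 1 library. edgeR called the latter (adjusted p = 0.0049) and not the former (0.0115).

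In libraries labelled Ern2-/- the Noxa1 increase did not pass, at 0.84 (SE 0.28, adjusted p = 0.0405) in CONV and 0.72 (SE 0.26, adjusted p = 0.0474) in COLONIZED mice. It passed without GF-Ern2-/- replicate 3 in both (1.06, adjusted p = 0.00659, and 0.93, adjusted p = 0.00574), without the libraries at WT levels of Ern2 (1.30, adjusted p = 0.0087, and 1.07, adjusted p = 0.00598), with sex as a covariate in CONV mice (1.06, adjusted p = 0.00725) and in the fit of all 18 libraries (0.85, adjusted p = 0.00131, and 0.72, adjusted p = 0.00643). The difference from the WT increase did not pass either, with interactions of -0.41 (SE 0.30, adjusted p = 0.793) in CONV and -0.43 (SE 0.31, adjusted p = 0.992) in COLONIZED mice. A missed threshold does not show that the increases were alike. Between genotype labels, Noxa1 counts did not overlap in CONV (-0.44, SE 0.20, adjusted p = 0.216) and COLONIZED mice (-0.47, SE 0.18, adjusted p = 0.0851), but neither difference passed.

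Nox1, the catalytic subunit, varied widely within groups and did not pass the test with all libraries. GF-WT held 917, 354 and 136 normalized counts, COLONIZED-WT 884, 1285 and 1064, and CONV-WT 2215, 1432 and 351. GF-Ern2-/- held 697, 532 and 265, COLONIZED-Ern2-/- 1014, 457 and 554, and CONV-Ern2-/- 760, 473 and 372. Compared with GF-WT mice the log2 fold change of Nox1 was 1.5 (SE 0.77, adjusted p = 0.168) in CONV-WT and 1.21 (SE 0.74, adjusted p = 0.218) in COLONIZED-WT mice, and a missed threshold does not show that levels were alike. CONV-WT replicate 3 was low in Nox1, in Duox2 and in the crypt base and proliferation sum, and high in the surface colonocyte sum. Without it, Nox1 counts of CONV-Ern2-/- fell below those of CONV-WT mice (-1.76, SE 0.36, adjusted p = 1.99e-05), compared with -1.31 (SE 0.60, adjusted p = 0.228) when all libraries were used. Nox1 was likewise lower in COLONIZED-Ern2-/- than in COLONIZED-WT mice only without COLONIZED-Ern2-/- replicate 1 (-1.09, SE 0.20, adjusted p = 4.93e-06, compared with -0.68, SE 0.27, adjusted p = 0.104), and it was higher in COLONIZED-WT than in GF-WT mice only without GF-WT replicate 1 (2.14, adjusted p = 0.000332).

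Noxo1, the organizer of the complex, differed least between groups. Group means ran from 1587 ± 280 (SD, n = 3) normalized counts in COLONIZED-Ern2-/- to 2096 ± 323 in COLONIZED-WT, and the libraries of all neighbouring groups overlapped. Its log2 fold changes in the 9 comparisons lay between -0.41 (SE 0.18, adjusted p = 0.14, COLONIZED-Ern2-/- compared with COLONIZED-WT) and 0.41 (SE 0.18, adjusted p = 0.0668, COLONIZED-WT compared with GF-WT). Of other oxidase subunits 1 was called in each comparison with GF mice, out of 7 tested in CONV-WT (10.7% of all genes), 6 in COLONIZED-WT (17.9%), 6 in CONV-Ern2-/- (4.36%) and 8 in COLONIZED-Ern2-/- (7.22%). Rac2, a Rac GTPase mainly of blood cells, was higher in CONV-WT (1.73, adjusted p = 0.00355), CONV-Ern2-/- (1.84, adjusted p = 0.000673) and COLONIZED-Ern2-/- mice (1.40, adjusted p = 0.00974). Cyba, the subunit p22phox that NOX1 requires, was higher in COLONIZED-WT mice (0.96, adjusted p = 0.000238). The leukocyte list summed to 62.2 to 133 in GF-WT and 78.5 to 298 in CONV-WT libraries, and to 82 to 205 in GF-Ern2-/-, 169 to 281 in CONV-Ern2-/- and 86.2 to 175 in COLONIZED-Ern2-/- libraries, and its part in the Rac2 changes was not tested.

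**Figure D4:**
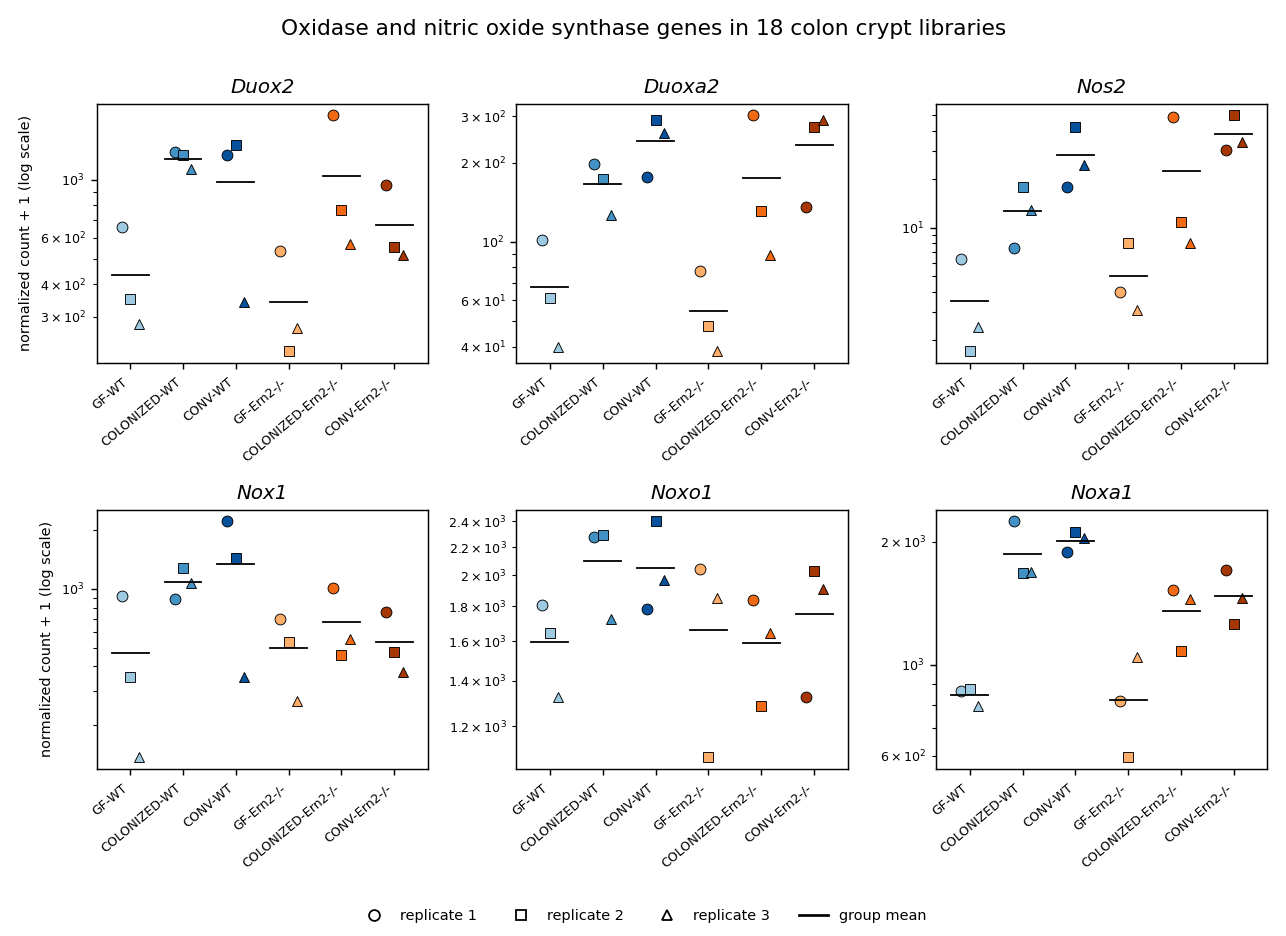
Normalized count plus 1 (y axis, log scale, with a range of its own in each panel) of Duox2, Duoxa2, Nos2, Nox1, Noxo1 and Noxa1 in each library of 6 groups (x axis), with symbols for replicates and a bar for the group mean of 3 libraries. GF libraries lie below the other groups of the same genotype label in Duoxa2 and Noxa1, whereas Noxo1 overlaps throughout and CONV-WT replicate 3 is low in Duox2 and Nox1.

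Enzymes that remove peroxide and superoxide were called in few cases. In COLONIZED-WT compared with GF-WT mice 4 of 19 tested genes rose (17.9% of all genes were called), and in CONV-WT mice 1 of 19 (10.7%), so neither count stood clearly above that of all genes. Both included Gpx2, the gastrointestinal glutathione peroxidase. Gpx2 rose from 3757 ± 1300 (SD, n = 3) to 13191 ± 4025 normalized counts in CONV-WT (log2 fold change 1.80, adjusted p = 3.99e-05) and to 12267 ± 1733 in COLONIZED-WT mice (1.72, adjusted p = 2.41e-10). It was lower under the Ern2-/- label in CONV (-1.14, SE 0.29, adjusted p = 0.0043) and in COLONIZED mice (-0.75, SE 0.16, adjusted p = 0.000328), and it was not called in either comparison with GF-Ern2-/- mice. No gene of the list, Gpx2 included, was called in the CONV interaction (0 of 19, beside 0.178% of all genes) or the COLONIZED interaction (0 of 19, beside 0.028%). Between genotype labels of CONV mice edgeR called no gene. The others called in COLONIZED-WT compared with GF-WT mice were Prdx4 (0.69), Prdx1 (0.44) and Gsr (0.37). Genes of the NRF2 pathway, which answers oxidants, were called higher in 3 of 10 cases in COLONIZED-WT (Nqo1, G6pdx and Slc7a11) and in 1 of 10 in CONV-WT (Slc7a11, 2.07, adjusted p = 0.00668), beside the same shares of all genes. In CONV-Ern2-/- compared with COLONIZED-Ern2-/- mice 3 of 19 peroxide and superoxide genes were called (8.37% of all genes). Prdx6 (1.73, adjusted p = 7.18e-19) and Prdx5 (0.69, adjusted p = 0.000395) were higher and Prdx4 (-0.84, adjusted p = 0.00873) was lower. Of the NRF2 list 1 of 10 was called there, Srxn1, which was higher (0.97, adjusted p = 0.000255).

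The receptors and signalling genes upstream of the acute phase response changed in both directions. Of 22 tested genes for IL-22, IL-6 and IL-17 receptors and STAT3 or NF-kB signalling, 4 fell and 1 rose in CONV-WT (10.7% of all genes called), and 6 of 21 fell and 2 rose in COLONIZED-WT (17.9%) compared with GF-WT mice. Il22ra1, the IL-22 receptor subunit of epithelial cells, had the direction of Saa1 in each comparison in which it was called. It fell from 1602 ± 501 (SD, n = 3) normalized counts in GF-WT to 581 ± 77.1 in CONV-WT (log2 fold change -1.47, adjusted p = 1.51e-05) and 683 ± 159 in COLONIZED-WT mice (-1.22, adjusted p = 2.17e-05). It fell from 1195 ± 55.7 in GF-Ern2-/- to 692 ± 44.6 in COLONIZED-Ern2-/- mice (-0.79, adjusted p = 5.08e-05). Il22ra1 was higher in CONV-Ern2-/- (1140 ± 72.2) than in CONV-WT mice (0.97, SE 0.19, adjusted p = 6.73e-05), and its CONV interaction was called (1.39, SE 0.32, adjusted p = 0.00714). For both of these fits edgeR called no gene. Il17rc, Relb, Tnfaip3 and Il17re likewise had the direction of Saa1 wherever they were called, whereas Nfkbiz and Cebpb had the opposite direction. Il17re (-0.86 and -0.53) and Tnfaip3 (-0.92 and -1.09), an inhibitor of NF-kB, fell in CONV-WT and COLONIZED-WT mice, whereas Nfkbiz, a nuclear cofactor of NF-kB, rose (1.72, adjusted p = 1.22e-08, and 0.61, adjusted p = 0.00332). In libraries labelled Ern2-/-, 1 of 21 genes was called in CONV mice (Il6ra, -3.64, adjusted p = 0.000741; 4.36% of all genes) and 4 of 22 were called lower in COLONIZED mice (7.22%).

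Profiles over the 18 libraries were compared by the Pearson correlation of log2(normalized count + 1) with 10852 genes of a mean of at least 50, as a description over libraries that share groups. The genes most like Saa1 were Hectd3 (0.972) and the surface colonocyte gene Car4 (0.964), and those most like Saa2 were Saa1 (0.951) and Cyp2d34 (0.95). Saa3 was closest to Cyb5 (0.945) and Akr1c19 (0.942), and its correlation with Saa1 was 0.366. Duox2 was closest to Dlgap5 and Vars (0.911 each), Duoxa2 to Med10 (0.895) and Ecd (0.89), and Nos2 to Duoxa2 (0.879) and Capg (0.872). Nox1 was closest to Clca4 (0.933) and Ecscr (0.876), Noxo1 to Stx5a (0.879) and Trmt1 (0.873), and Noxa1 to Hdac7 (0.949) and Smco4 (0.948). Lcn2, near 0 in all libraries, reached 0.744 with Kdf1 and 0.702 with C330006A16Rik. Within the group, Saa1 ran against Noxa1 (-0.781), Duox2 (-0.747) and Duoxa2 (-0.701), and the divergent neighbours Duox2 and Duoxa2 correlated at 0.677, below Duox2 and Nox1 at 0.82.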

How the data were processed

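RNA of crypt cells had been made into strand-specific mRNA libraries and read once over 75 cycles (study's methods and labels). The authors ran the VIPER pipeline with STAR (mm10) and deposited a table of unnormalized counts for each gene symbol and library. Tool versions and the strand setting are not given in the sources used here. A table column was assigned to a sample through the number its label carries, and 0 columns were left over.

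Normalized counts were counts divided by DESeq2 1.42.0 size factors of all 18 libraries. Each of 9 comparisons was fitted on its own 6 libraries, and each of 2 interactions on 12, with the DESeq2 Wald test in R 4.3.3 at default filtering (level 0.1), after genes without a count in those libraries were dropped. Adjusted p-values were Benjamini-Hochberg values over all tested genes, and genes were called under 0.01, as in the study's methods. edgeR 4.0.16 (quasi-likelihood, TMM) was the alternative. Fold changes were not shrunk. The labels do not say how the replicates of a group relate, so p-values measure the spread between these libraries.

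The members and gene lists were chosen with earlier results of these data known. All members were named, and of each list the called genes, at most 4 by adjusted p, except 1 gene that is not reported here. Tested on simulated data of COLONIZED-WT compared with GF-WT (17242 genes), DESeq2 recovered 80% of 2-fold and 98% of 4-fold changes with 9.18% false calls, and edgeR 50%, 93% and 2.72%. For CONV-Ern2-/- compared with CONV-WT (16759 genes) the values were 36%, 98% and 18.8% for DESeq2 and 2%, 66% and 1.45% for edgeR, and for the COLONIZED interaction (17912 genes) 31%, 93% and 16.2%, and 4%, 80% and 0%.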

Additional observations from a re-analysis of the deposited data

Results flagged for a closer look

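The response of Saa1 to lifelong microbes differed between genotype labels by an interaction of 3.05 on the log2 scale (DESeq2, SE 0.70, adjusted p = 0.00714), which is a difference between groups under the same contrast. Saa1 fell by 4.74 in WT and by 1.68 in libraries labelled Ern2-/-. The interaction was positive in all 12 fits that left out 1 library (2.43 to 3.43), passed the threshold in 3 of them, and had an adjusted p of 0.431 in edgeR. Of 8 surface colonocyte markers, 1 (Ceacam20) was called higher in the same interaction, and its part was not tested.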

How the results depend on the processing

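Of 21 gene and comparison pairs called with DESeq2, none changed direction under any setting. All 21 stayed called with TMM factors, with a low-count filter and with the replicate block, 18 with sex as a covariate, 17 in a fit of all 18 libraries and 6 in edgeR, and 7 of 10 without the 3 Ern2-/- libraries at WT levels of Ern2. Of 132 fits that left out 1 library, 105 kept the call. Same-numbered libraries correlated at -0.28 to 0.633 in their deviations from group means, and in no comparison were all 3 pairs over 0.1, so the numbers were not taken as pairs. The replicate block added 1 called member in each of 5 comparisons, namely Saa3 in CONV-Ern2-/- compared with CONV-WT (from 1 to 2), Nox1 in CONV-WT (5 to 6) and Noxo1 in COLONIZED-WT (5 to 6) compared with GF-WT, and Duox2 in CONV-Ern2-/- (3 to 4) and Noxa1 in COLONIZED-Ern2-/- (4 to 5) compared with GF-Ern2-/-.

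In edgeR the members called fell from 1 to 0 in CONV-Ern2-/- compared with CONV-WT, from 5 to 0 in CONV-WT and from 5 to 3 in COLONIZED-WT compared with GF-WT, from 3 to 0 in CONV-Ern2-/- and from 4 to 2 in COLONIZED-Ern2-/- compared with GF-Ern2-/-, from 2 to 1 in CONV-Ern2-/- compared with COLONIZED-Ern2-/-, and from 1 to 0 in the CONV interaction. The sex covariate and the fit of all libraries each gave 3 in COLONIZED-WT compared with GF-WT, and the latter 1 in CONV-Ern2-/- compared with COLONIZED-Ern2-/-. COLONIZED-Ern2-/- compared with COLONIZED-WT had 0 members called and 2 without COLONIZED-Ern2-/- replicate 1. Leaving out 1 library gave 1 to 3 members in CONV-Ern2-/- compared with CONV-WT, 0 to 2 in COLONIZED-Ern2-/- compared with COLONIZED-WT, 3 to 7 in CONV-WT and 4 to 6 in COLONIZED-WT compared with GF-WT, 2 to 4 in both comparisons with GF-Ern2-/- and 0 to 1 in the CONV interaction. The causes were not tested. An arm left with 1 library was assumed to vary like the other groups.

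Keeping genes without counts in the fit, or tuning the filter to 0.01, both chosen after seeing the data, left the same members called in all 11 comparisons. Genes with few counts, Lcn2 and Nos2, are limited by depth.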
